A study of Mus musculus with 8 samples.

Results

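Collagen genes were taken as every gene symbol of the deposited table made of Col, a number, the letter a and a number, which gave 44 of 22244 symbols. They comprised 11 fibrillar chains, 8 basement membrane chains (6 of type IV, with types XV and XVIII) and 25 others. The comparison set 4 lungs of naphthalene-injected mice against 4 lungs of untreated control mice, all adult wild-type male C57BL/6J, a standard inbred strain. Naphthalene is an aromatic hydrocarbon that airway club cells of the mouse turn into toxic products, and it is used to injure the airway lining. Total RNA of the right cranial lobe of each mouse was sequenced, and the labels name neither dose nor vehicle, nor the age in weeks or the time of sampling. Since the controls are labelled as having had no treatment, effects of naphthalene and of being injected cannot be told apart. In whole lung RNA, fewer cells of a type and less RNA per cell cannot be told apart either. Libraries held 10743842 to 16792306 counts, and levels are given as CPM, each gene's share of its library's counts scaled with TMM, a correction for library composition.

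Collagens are triple helices of chains, each chain encoded by its own gene, that are secreted into the extracellular matrix. Fibrillar collagens, led by types I, III and V, form the tensile fibres around airways and vessels and in the alveolar walls. Type IV collagens form the sheet-like network of the basement membrane on which epithelium and capillaries rest. The chains encoded by Col4a1 and Col4a2 assemble with each other and occur in nearly all basement membranes, whereas the Col4a5 chain assembles either with the Col4a3 and Col4a4 chains or with the Col4a6 chain. The remaining types include microfibrils (type VI), collagens that decorate fibrils (types XII and XIV) and collagens that cross the cell membrane (types XIII, XVII, XXIII and XXV).

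The type IV genes lie in head-to-head pairs, and the promoter windows of the 4 that could be tested are shown because the 2 members of each pair moved in the same direction. Each window runs from 250 bases before to 50 bases after the annotated start, 5′ to 3′ on the strand of the gene, from RefSeq on GRCm38.p6, another build than the mm39 of the counts. Capitals mark the motifs CCAAT and GGGCGG on either strand. The windows are chr8:11312777-11313076, minus strand, for Col4a1 and chr8:11312555-11312854, plus strand, for Col4a2, followed by chrX:141475169-141475468, plus strand, for Col4a5 and chrX:141474027-141474326, minus strand, for Col4a6.
Col4a1: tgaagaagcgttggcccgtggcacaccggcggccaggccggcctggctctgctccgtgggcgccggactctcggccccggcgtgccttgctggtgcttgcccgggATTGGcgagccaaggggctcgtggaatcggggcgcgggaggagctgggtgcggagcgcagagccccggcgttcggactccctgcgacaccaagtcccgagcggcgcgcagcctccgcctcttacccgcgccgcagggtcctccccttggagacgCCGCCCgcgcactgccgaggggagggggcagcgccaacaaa
Col4a2: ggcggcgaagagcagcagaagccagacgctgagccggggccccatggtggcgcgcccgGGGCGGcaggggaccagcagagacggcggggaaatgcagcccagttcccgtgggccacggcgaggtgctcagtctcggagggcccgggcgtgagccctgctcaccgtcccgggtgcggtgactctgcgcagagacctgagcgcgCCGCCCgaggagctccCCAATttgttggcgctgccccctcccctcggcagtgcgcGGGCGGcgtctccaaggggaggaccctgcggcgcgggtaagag
Col4a5: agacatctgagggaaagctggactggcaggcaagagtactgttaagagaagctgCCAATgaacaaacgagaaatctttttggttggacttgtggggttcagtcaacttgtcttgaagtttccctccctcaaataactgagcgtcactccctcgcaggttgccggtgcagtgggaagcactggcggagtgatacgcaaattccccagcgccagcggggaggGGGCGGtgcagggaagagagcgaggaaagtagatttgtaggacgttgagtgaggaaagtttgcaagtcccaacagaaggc
Col4a6: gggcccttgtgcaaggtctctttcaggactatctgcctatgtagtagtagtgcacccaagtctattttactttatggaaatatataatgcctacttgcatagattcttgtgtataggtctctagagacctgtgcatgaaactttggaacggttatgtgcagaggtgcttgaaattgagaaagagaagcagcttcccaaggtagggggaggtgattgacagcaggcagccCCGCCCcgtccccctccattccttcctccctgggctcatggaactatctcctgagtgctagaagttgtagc

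The Col4a1 and Col4a2 windows share 78 bases, and the annotated starts lie 21 bases apart with the first 22 transcribed bases of each covering the same stretch on opposite strands. Counts in that short overlap could not be assigned without the strand setting of the counting, which no source used here states. The Col4a5 and Col4a6 starts lie 1343 bases apart, and their windows share 0 bases. CCAAT was found once in the Col4a1, Col4a2 and Col4a5 windows and not in the Col4a6 window, and GGGCGG 3 times in the Col4a2 window and once in each of the other 3. The GGGCGG match of the Col4a1 window lies in the 78 shared bases and is the same site as 1 of the 3 in the Col4a2 window. Over the 32851 windows of the table, CCAAT occurred in 37.4% and GGGCGG in 35.7%, and over the 38 windows of the 35 collagen genes found there, in 34.2% and 60.5%. A match describes the letters of a window only.

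Of the 44 collagen genes, 7 were listed at 0 counts in all 8 libraries, namely Col3a1, Col5a2, Col4a3, Col4a4, Col6a3, Col9a1 and Col19a1. All 7 are placed on chromosome 1, and no other collagen gene is (GENCODE M21, on GRCm38). Of 1129 symbols of the table placed on that chromosome, 1128 were listed at 0, against 802 of 17423 (4.6%) on chromosomes 2 to 19. The zeros therefore cover nearly the whole chromosome, including Fn1, the fibronectin gene, and say nothing of whether these 7 genes are expressed. Col3a1, a main fibrillar chain, Col5a2 and Col6a3, the partners of measured type V and type VI chains, and Col4a3 and Col4a4, the partners of Col4a5 in the alveolar basement membrane, were not analysed here.

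Another 6 collagen genes had too few counts to be tested, and the remaining 31 were tested. Of these, 2 rose after naphthalene and 5 fell, a called share of 22.6%, against 28.7% of the 14192 genes tested (14.1% higher and 14.6% lower), so that the share of changed collagen genes was near that of all genes and is no result about collagens as a family. The threshold was an adjusted p of 0.05 in edgeR's quasi-likelihood test, with Benjamini-Hochberg adjustment over all tested genes. The 7 were unevenly placed among the classes, with 4 of 6 tested basement membrane genes, 0 of 6 tested fibrillar genes and 3 of 19 tested others. The median log2 fold change was -0.39 for the fibrillar genes, -0.18 for the basement membrane genes, -0.26 for the others and -0.27 for all 31, beside 0.01 over all tested genes. The log2 fold change was below 0 for 22 of the 31 genes, of which 5 passed, against 6912 of all 14192 tested genes. Values of the 4 naphthalene and the 4 control lungs did not overlap for 8 of the 31 genes, 2 with higher and 6 with lower levels, against 28.6% of all tested genes (13.9% and 14.7%).

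**Figure D1:**
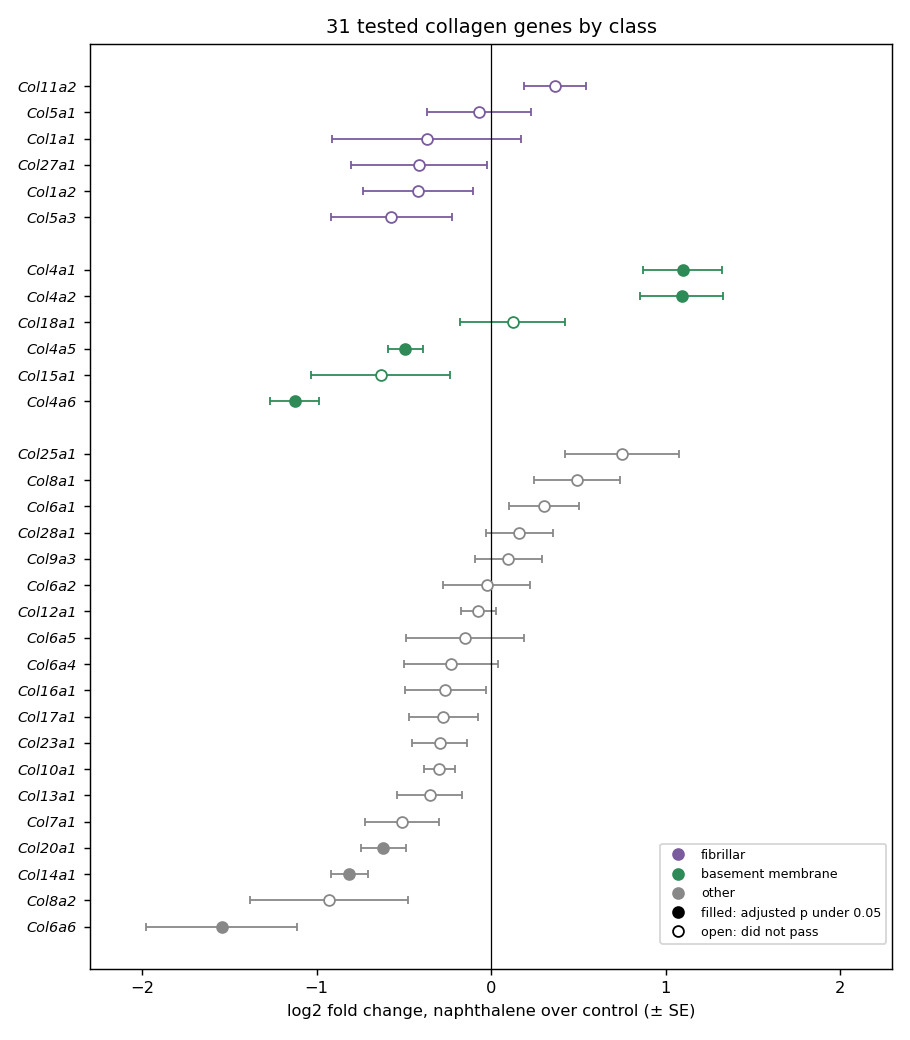
Log2 fold change of each of the 31 tested collagen genes, naphthalene over control, with SE bars (4 lungs per group), by class from top to bottom; filled points passed an adjusted p of 0.05. Col4a1 and Col4a2 stand near 1.1 on the right, Col4a6 near -1.13 on the left, and all 6 fibrillar points are open.

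The type IV genes were split. Col4a1 and Col4a2, the pair found in nearly all basement membranes, rose about as much as each other, while Col4a5 and Col4a6 fell. Col4a1 stood at 2116, 2082, 2123 and 1140.4 CPM in naphthalene lungs 1 to 4, against 921, 901, 792 and 872 CPM in control lungs 1 to 4. The groups did not overlap, and naphthalene lung 4 lay closest to the controls while the other 3 were far above them. The difference passed the test (log2 fold change 1.10 with SE 0.23, adjusted p = 0.00133 in edgeR), a 2.14-fold ratio of group means. Col4a2 stood at 1529.9, 1427, 1365 and 757 CPM in naphthalene lungs, against 615, 618, 558 and 590.2 CPM in control lungs. Again naphthalene lung 4 was the lowest of its group and still above every control (log2 fold change 1.09 with SE 0.24, adjusted p = 0.00156 in edgeR). The ratio of Col4a1 to Col4a2 within a lung, per kilobase of exon, was 1.23 to 1.38 in naphthalene lungs and 1.26 to 1.33 in control lungs, and the groups overlapped.

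Col4a5, which encodes a chain of the mature alveolar and glomerular basement membrane, stood at 231, 195, 199 and 253 CPM in naphthalene lungs, against 318, 292, 329.5 and 295 CPM in control lungs. The groups did not overlap, and here naphthalene lung 4 was the highest of its group (log2 fold change -0.49 with SE 0.10, adjusted p = 0.00541 in edgeR). Col4a6 stood at 30.2, 24.9, 24.7 and 22.7 CPM in naphthalene lungs, against 58.0, 54.9, 45.2 and 65.8 CPM in control lungs. All 4 naphthalene lungs were well below the lowest control (log2 fold change -1.13 with SE 0.14, adjusted p = 0.000176 in edgeR), a 0.458-fold ratio of group means. Per kilobase, Col4a1 exceeded Col4a5 by a factor of 8.24, 9.604, 9.62 and 4.05 in the naphthalene lungs, against 2.61, 2.78, 2.16 and 2.66 in the control lungs. That factor was lower in naphthalene lung 4 than in the other naphthalene lungs and higher than in any control. The Col4a5 to Col4a6 ratio per kilobase was 9.09 to 13.2 in naphthalene lungs and 5.32 to 8.66 in control lungs. All 4 calls were kept under each of the 18 alternatives of scaling, filter, tool, block and left-out libraries, and 4 also passed at an adjusted p of 0.01. Without naphthalene replicate 4 the log2 fold changes of Col4a1 and Col4a2 were 1.27 and 1.28.

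**Figure D2:**
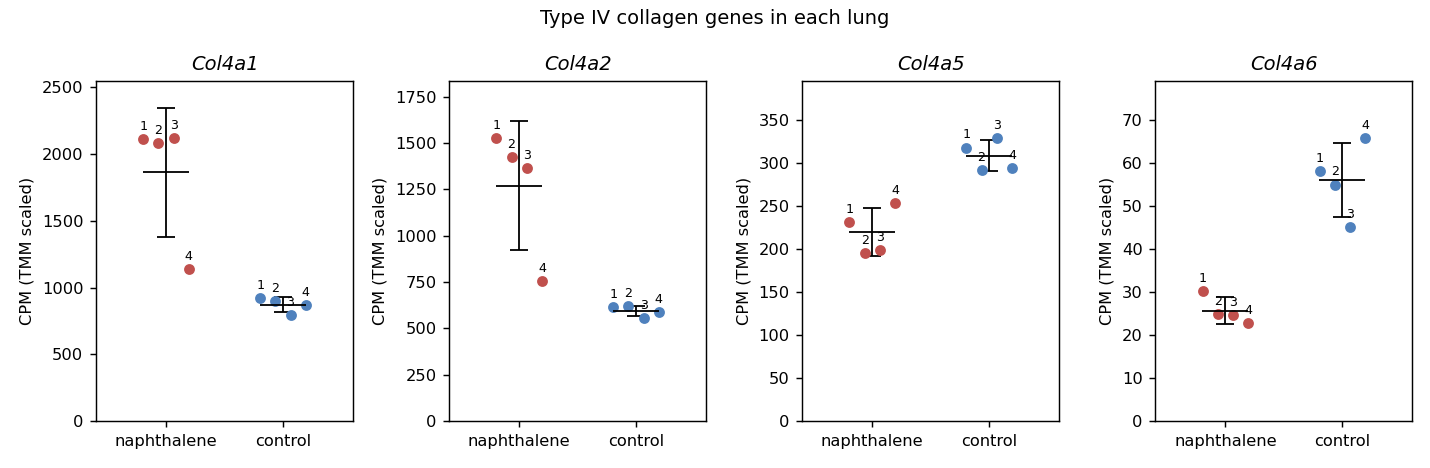
CPM of the 4 tested type IV collagen genes in each lung, numbered by replicate, naphthalene in red and control in blue, with group mean and SD bars (n = 4 each). For Col4a1, naphthalene lungs 1 to 3 lie between 2082 and 2123 CPM and lung 4 at 1140.4 CPM, above all controls; Col4a5 and Col4a6 lie below all controls.

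The 2 other basement membrane genes did not pass. Col15a1, a chain of the zone beneath the basement membrane, stood at 13.2, 8.09, 3.87 and 6.23 CPM in naphthalene lungs, against 13.4, 11.97, 8.79 and 15.2 CPM in control lungs, and the groups overlapped (log2 fold change -0.63 with SE 0.40, adjusted p = 0.148 in edgeR). Without naphthalene replicate 1 its log2 fold change was -1.01 and passed (adjusted p = 0.00979; range over 18 alternatives 0.00453 to 0.313). Col18a1, whose C-terminal fragment is endostatin, stood at 81.7, 62.1, 40.5 and 35.6 CPM in naphthalene lungs, against 56.7, 52.7, 39.01 and 54.1 CPM in control lungs (log2 fold change 0.12 with SE 0.30, adjusted p = 0.725 in edgeR). Naphthalene lung 1 was the highest of all 8, and without that library the log2 fold change was -0.13.

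Of the 6 tested fibrillar genes 0 passed in the main edgeR test, DESeq2 or limma voom. In that edgeR test 0 of them had an unadjusted p under 0.05. In limma voom with quality weights 2 passed, a setting that called 45.8% of all tested genes. With the replicate number as a block in edgeR, Col5a3 passed as lower (adjusted p = 0.0219), where 30.7% of all tested genes passed. For type I collagen the spread between lungs of one group was wider than the difference between groups. Col1a1, which encodes the main chain of type I collagen, stood at 363, 202, 114 and 116 CPM in naphthalene lungs, against 346, 253, 112 and 317 CPM in control lungs. Naphthalene lung 1 was the highest of all 8 and control lung 3 the lowest, so that the groups overlapped over nearly their whole range (log2 fold change -0.37 with SE 0.54, adjusted p = 0.515 in edgeR; limma voom 95% interval -1.31 to 0.46). Col1a2, the second type I chain, stood at 448, 314, 219 and 236 CPM in naphthalene lungs, against 459.9, 428, 255 and 484 CPM in control lungs (log2 fold change -0.42 with SE 0.32, adjusted p = 0.22 in edgeR; interval -0.97 to 0.09). Naphthalene lung 1 again lay among the controls, and control lung 3, the lowest of its group, lay among the naphthalene lungs. Col5a1, a type V chain that seeds type I fibrils, stood at 146, 106, 73.98 and 66.8 CPM in naphthalene lungs, against 122, 105, 74.6 and 111 CPM in control lungs (log2 fold change -0.07 with SE 0.30, adjusted p = 0.851 in edgeR), and the groups overlapped. Col5a3 averaged 5.92 ± 2.64 CPM after naphthalene and 8.89 ± 2.04 CPM in controls (SD, n = 4 each; log2 fold change -0.57, edgeR adjusted p = 0.161). Col27a1 averaged 16.6 ± 6.72 CPM after naphthalene and 22.2 ± 5.14 CPM in controls (log2 fold change -0.41, edgeR adjusted p = 0.299). Col11a2 was the exception in sign at 5.58 ± 1.04 CPM after naphthalene and 4.37 ± 0.791 CPM in controls (log2 fold change 0.37, edgeR adjusted p = 0.192).

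The fibrillar count depended on naphthalene lung 1 and control lung 3, although it stayed at 0 with control replicate 3 alone left out. Without naphthalene replicate 1, Col1a2 and Col5a3 passed as lower, with log2 fold changes of -0.66 and -0.92 (edgeR adjusted p = 0.0264 and 0.013). Without both libraries, 5 of the 6 fibrillar genes passed as lower, leaving Col11a2. This pair was chosen with earlier results of these data known, and since naphthalene lung 1 was often the highest and control lung 3 often the lowest of its group, leaving both out lowers the fold changes of such genes by construction. Col1a1 then had a log2 fold change of -1.08, Col1a2 of -0.83, Col5a3 of -1.04, Col27a1 of -0.77 and Col5a1 of -0.45 (edgeR adjusted p 0.0012 to 0.0459). Over the 18 alternatives the adjusted p of Col1a1 ranged from 0.00295 to 0.798 and that of Col1a2 from 0.0012 to 0.448. Over all collagen genes, 16 of 32 tested passed without naphthalene replicate 1 (14 lower and 2 higher), against 35.5% of all tested genes. Without both libraries 18 of 31 passed (16 lower and 2 higher), against 37.5% of all tested genes, and the 7 genes called with all libraries were among them in both cases. In both settings the 2 higher genes were Col4a1 and Col4a2. Markers of 2 cell types had their highest sum of the group in naphthalene lung 1 and their lowest in control lung 3, as many collagen genes did. The smooth muscle sum over 10 genes was 402 CPM in naphthalene lung 1 and 243 CPM in control lung 3, and the endothelial sum over 16 genes was 5172 CPM in naphthalene lung 1 and 4093 CPM in control lung 3. The fibroblast sum over 17 genes was highest of its group in both, at 9786 CPM in naphthalene lung 1 and 12760.2 CPM in control lung 3, and Macf1 made up 57.9% of it. Myofibroblast, pericyte and Schwann cell sums were also highest of their group in both (832, 1566 and 619.9 CPM in control lung 3). Without their largest genes, Postn and Pmp22, the myofibroblast and Schwann cell sums were highest in naphthalene lung 1 (395 and 384 CPM). They were then lowest in control lung 3 (261 and 187 CPM). The part of these cell types in the result was not tested.

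**Figure D3:**
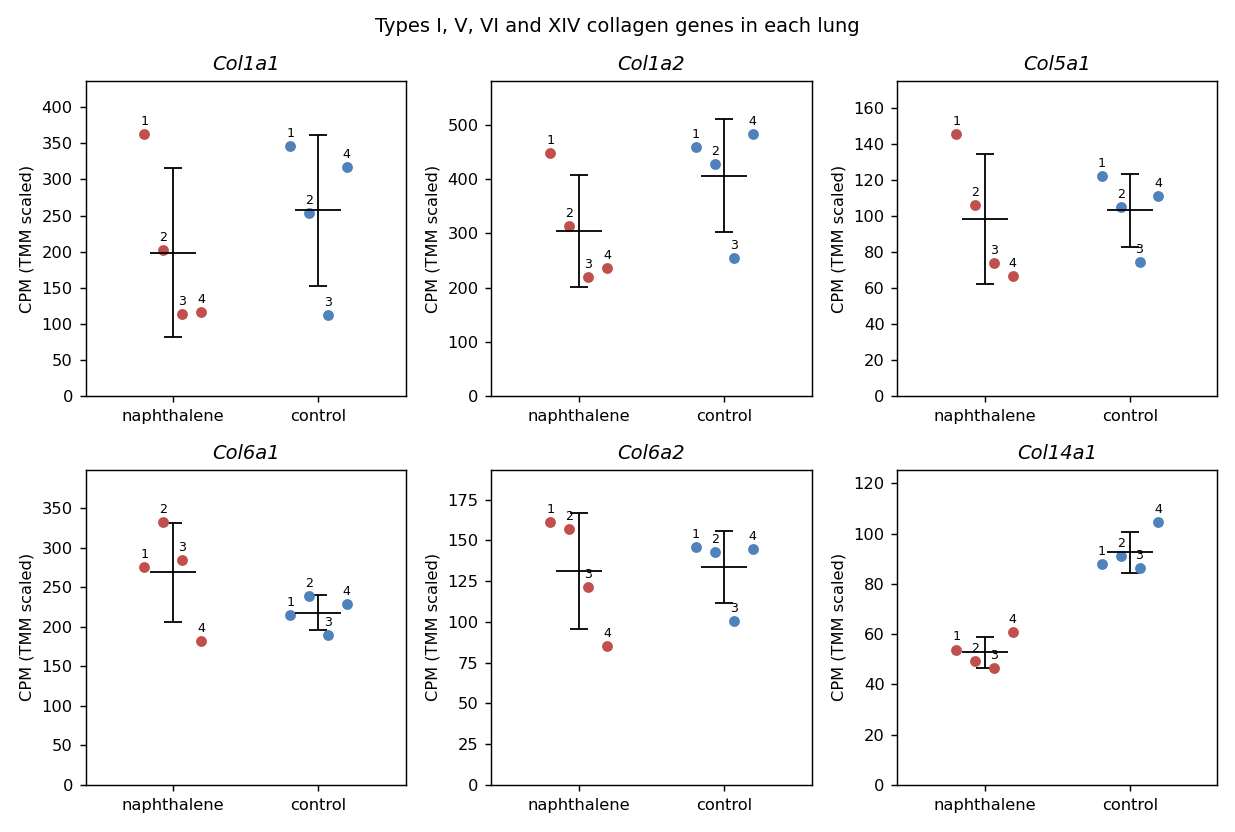
CPM of 6 collagen genes of types I, V, VI and XIV in each lung, numbered by replicate, naphthalene in red and control in blue, with group mean and SD bars (n = 4 each). For Col1a1, naphthalene lung 1 (363 CPM) and control lung 3 (112 CPM) are the highest and the lowest of all 8, whereas the Col14a1 values do not overlap between groups.

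Among collagens that attach to fibrils, 2 of 5 tested genes passed, both as lower. Over all tested genes 28.7% passed (14.6% lower), and 5 genes are too few to set beside that share. Col14a1, a fibril-associated chain made by fibroblasts, stood at 53.9, 49.3, 46.7 and 60.98 CPM in naphthalene lungs, against 88.03, 91.1, 86.2 and 104 CPM in control lungs. The groups were far apart, and the highest naphthalene lung, lung 4, was below every control (log2 fold change -0.81 with SE 0.10, adjusted p = 0.000338 in edgeR). Col20a1, a little-studied member of the same class, stood at 13.6, 13.6, 15.1 and 12.2 CPM in naphthalene lungs, against 25.1, 19.5, 17.4 and 21.6 CPM in control lungs, without overlap (log2 fold change -0.62 with SE 0.13, adjusted p = 0.00605 in edgeR). Both calls were kept under each of the 18 alternatives. Col12a1, a fibril-associated chain of similar layout, averaged 116 ± 12.7 CPM after naphthalene and 122 ± 10.5 CPM in controls and did not pass (log2 fold change -0.07, interval -0.30 to 0.15). Col16a1 averaged 30.9 ± 9.49 CPM after naphthalene and 37.1 ± 4.91 CPM in controls and Col9a3 1.58 ± 0.254 CPM after naphthalene and 1.49 ± 0.396 CPM in controls, and neither passed. Without naphthalene replicate 1 Col16a1 passed as lower (log2 fold change -0.48).

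Type VI collagen forms beaded microfibrils next to cells, from the chains of Col6a1, Col6a2 and Col6a3 or of other type VI genes. Col6a1 stood at 276, 332, 285 and 183 CPM in naphthalene lungs, against 216, 239, 189 and 229 CPM in control lungs (log2 fold change 0.30 with SE 0.20, adjusted p = 0.181 in edgeR). Naphthalene lungs 1 to 3 were above all controls and lung 4 below all of them, and without naphthalene replicate 4 Col6a1 passed as higher (log2 fold change 0.45, adjusted p = 0.00997; range over 18 alternatives 0.00997 to 0.441). Col6a2 stood at 161, 157, 121 and 84.97 CPM in naphthalene lungs, against 146, 143, 100.4 and 145 CPM in control lungs (log2 fold change -0.03 with SE 0.25, adjusted p = 0.936 in edgeR; interval -0.49 to 0.38). Within a lung, the Col6a1 to Col6a2 ratio per kilobase was 3.26 to 4.46 in naphthalene lungs and 2.81 to 3.58 in control lungs. The size of this ratio depends on the exon lengths used, 4380 and 8326 bases over all annotated transcripts, whereas its comparison between groups does not. Col6a6, a low type VI chain gene, had 10, 2, 8 and 10 counts in naphthalene lungs, against 22, 23, 17 and 21 counts in control lungs. The 4 naphthalene lungs were below all controls (log2 fold change -1.54 with SE 0.43, adjusted p = 0.0155 in edgeR), a value resting on few counts. It did not pass at an adjusted p of 0.01, and in limma voom with quality weights its log2 fold change was -2.64. Col6a4 and Col6a5 averaged 0.998 ± 0.355 CPM after naphthalene and 1.18 ± 0.238 CPM in controls, and 1.502 ± 0.652 CPM after naphthalene and 1.63 ± 0.448 CPM in controls, and neither passed.

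Col8a1 and Col8a2 encode the chains of type VIII collagen, a network collagen of vessel walls, and stood on opposite sides of 0. Col8a1 stood at 36.4, 25.7, 16.3 and 25.2 CPM in naphthalene lungs, against 16.05, 20.8, 18.9 and 18.2 CPM in control lungs (log2 fold change 0.49 with SE 0.25, adjusted p = 0.0914 in edgeR). Naphthalene lung 3 lay among the controls, and Col8a1 passed as higher without naphthalene replicate 3 (log2 fold change 0.66, adjusted p = 0.0149; range over 18 alternatives 0.0149 to 0.236). Col8a2 stood at 21.8, 9.65, 6.06 and 10.3 CPM in naphthalene lungs, against 27.1, 19.2, 14.5 and 31.5 CPM in control lungs (log2 fold change -0.93 with SE 0.45, adjusted p = 0.0666 in edgeR). Naphthalene lung 1 overlapped with the controls, and Col8a2 passed as lower without naphthalene replicate 1 (log2 fold change -1.41, adjusted p = 0.00236) or without control replicate 3 (-1.10, adjusted p = 0.0423), within a range of 0.000618 to 0.184 over 18 alternatives. With all 8 libraries it also passed in DESeq2 (adjusted p = 0.0217), with no filter on low counts and in limma voom with quality weights. It passed too with the replicate number as a block in edgeR (adjusted p = 0.00471), and in all under 7 of the 18. Col7a1, the anchoring fibril chain that ties epithelium to the stroma, averaged 12.1 ± 2.403 CPM after naphthalene and 17.3 ± 3.62 CPM in controls (log2 fold change -0.51 with SE 0.21, adjusted p = 0.0582 in edgeR). It passed as lower without either of the same 2 libraries (without control replicate 3, 26.4% of all tested genes passed; adjusted p = 0.0202 and 0.026; range 0.0062 to 0.162). With all 8 libraries Col7a1 also passed in DESeq2 (adjusted p = 0.035), with upper quartile scaling and in limma voom with quality weights. It passed too with the replicate block in edgeR (adjusted p = 0.0495), and in all under 7 of the 18. Col10a1, known from growth plate cartilage, averaged 10.5 ± 0.558 CPM after naphthalene and 12.9 ± 1.48 CPM in controls without overlap between groups, and did not pass (log2 fold change -0.30 with SE 0.09, adjusted p = 0.0994 in edgeR). Col28a1 averaged 1.47 ± 0.414 CPM after naphthalene and 1.32 ± 0.108 CPM in controls and did not pass.

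Of the 4 membrane-spanning collagens 0 passed in the main edgeR test of all 8 libraries, in DESeq2 or in limma voom. In that edgeR test 1 had an unadjusted p under 0.05 (Col13a1), and 1 passed in limma voom with quality weights (Col17a1). With the replicate number as a block in edgeR, Col13a1 passed as lower (adjusted p = 0.0431). Over all tested genes the called share was 28.7% in the main test, 32.1% in DESeq2, 45.8% with quality weights and 30.7% with the block. With 4 genes, 0 passing is no result about this class. Col13a1 averaged 36.2 ± 8.87 CPM after naphthalene and 46.4 ± 3.62 CPM in controls (log2 fold change -0.35, edgeR adjusted p = 0.119). Col23a1 averaged 66.5 ± 12.5 CPM after naphthalene and 81.6 ± 7.87 CPM in controls (log2 fold change -0.30, edgeR adjusted p = 0.126). Both passed as lower without naphthalene replicate 1, with log2 fold changes of -0.48 and -0.39. Col17a1, the hemidesmosome collagen of basal epithelial cells, averaged 9.297 ± 2.21 CPM after naphthalene and 11.2 ± 1.48 CPM in controls (log2 fold change -0.27, edgeR adjusted p = 0.286). Col25a1 averaged 1.75 ± 0.625 CPM after naphthalene and 1.03 ± 0.330 CPM in controls (log2 fold change 0.75, edgeR adjusted p = 0.129).

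The 6 genes with too few counts to test were Col2a1, Col9a2, Col11a1, Col22a1, Col24a1 and Col26a1. Col2a1, the main cartilage chain, had 9, 10, 3 and 6 counts in naphthalene lungs, against 1, 4, 1 and 1 counts in control lungs. Col26a1 had 9, 6, 2 and 5 counts in naphthalene lungs, against 11, 9, 11 and 16 counts in control lungs. With no filter on low counts the adjusted p was 0.0638 for Col2a1 and 0.0694 for Col26a1, and 0.296 to 0.969 for the other 4. Col26a1 entered the test and passed as lower without naphthalene replicate 1, naphthalene replicate 4 or control replicate 2. Col11a1 had 1, 0, 6 and 11 counts in naphthalene lungs, against 2, 2, 3 and 12 in control lungs, and Col9a2 had 9, 7, 2 and 8 counts in naphthalene lungs, against 1, 4, 5 and 3 in control lungs. Col22a1 had 5, 6, 4 and 13 counts in naphthalene lungs, against 7, 11, 6 and 8 in control lungs, and Col24a1 had 4, 6, 4 and 7 counts in naphthalene lungs, against 8, 8, 9 and 8 in control lungs. The cartilage marker sum over 10 genes was 3.13 to 5.36 CPM in naphthalene lungs and 3.05 to 3.78 CPM in control lungs, and its genes lay near 0. Of its 9 genes with counts, the mean level was higher in naphthalene lungs for 5 (Acan, Epyc, Matn3, Sox9 and Ucma) and lower for 4 (Cnmd, Hapln1, Comp and Matn1), and neither of the 2 that could be tested passed (log2 fold change 1.01 for Sox9 and -0.55 for Hapln1). Acan, the defining cartilage proteoglycan, had 4, 1, 1 and 6 counts in naphthalene lungs, against 0, 0, 0 and 0 counts in control lungs. Cnmd, the chondromodulin gene, had 12, 6, 1 and 5 counts in naphthalene lungs, against 8, 9, 8 and 8 counts in control lungs. The part of cartilage in the Col2a1 counts was not tested.

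Levels across genes are ordered here per kilobase of exon. The lengths (GENCODE M21) count every exon base of all annotated transcripts of a gene, which can exceed the length of its mRNA. They were 12426 bases for Col1a2 and 6563 for Col1a1, and the order depends on them. Before division Col1a2 had the higher control mean of the 2, at 407 CPM against 257 CPM. The order leaves out the 7 genes on chromosome 1, Col3a1, Col5a2 and Col6a3 among them. Among the other collagen genes Col4a1 led, with a mean CPM per kilobase of 249.9 ± 64.8 after naphthalene and 117 ± 7.60 in controls (SD, n = 4 each), followed by Col4a2 with 192 ± 52.7 after naphthalene and 89.9 ± 4.17 in controls. Col6a1 came next with 61.4 ± 14.3 after naphthalene and 49.8 ± 4.93 in controls. Below it stood Col4a5 with 32.7 ± 4.13 after naphthalene and 45.9 ± 2.71 in controls, Col1a1 with 30.3 ± 17.9 after naphthalene and 39.2 ± 15.9 in controls and Col1a2 with 24.5 ± 8.37 after naphthalene and 32.7 ± 8.34 in controls. Each of these last 3 differed from the gene named before it by less than the larger of their SDs in both groups, except Col4a5 from Col6a1 in naphthalene lungs. Summed over all 44 genes, collagen counts made up 4869 ± 1121 CPM after naphthalene and 3544 ± 377 CPM in controls, with the type IV genes at 3380.1 ± 809 CPM after naphthalene and 1832 ± 79.7 CPM in controls. The fibrillar sum was 631 ± 265 CPM after naphthalene and 804 ± 233 CPM in controls. These sums leave out the same 7 genes.

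Variation between lungs of one group ran through most collagen genes at once. Naphthalene lung 1 held the highest value of its group for 19 of the 31 tested genes, against 33.8% of all tested genes, and the lowest for 2. Control lung 3 held the lowest value of its group for 23 of the 31, against 34.6% of all tested genes, and the highest for 3. Naphthalene lungs 3 and 4 held the lowest value for 12 genes each. The heat map of deviations shows this in the type I rows, where naphthalene lung 1 is red and naphthalene lung 3 and control lung 3 are blue.

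**Figure D4:**
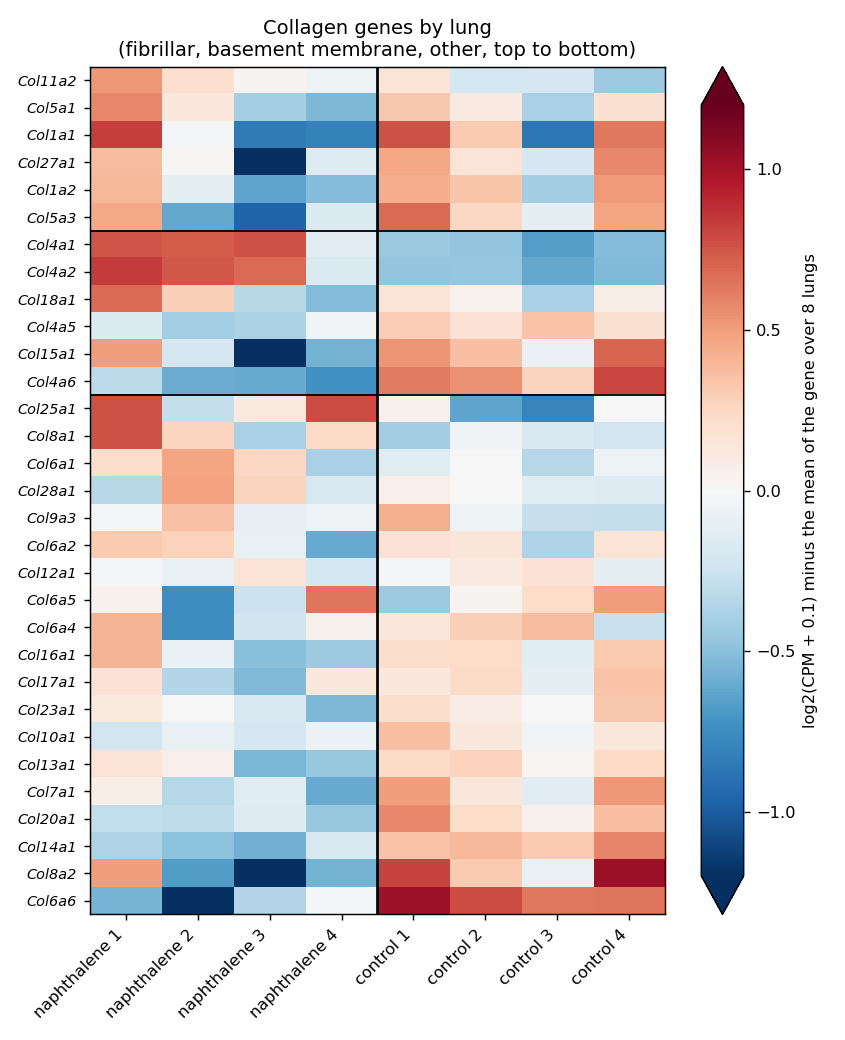
Deviation of each tested collagen gene (31 rows, fibrillar, basement membrane and other classes from top to bottom) from its mean over the 8 lungs (columns, naphthalene left of the line), as log2(CPM + 0.1), with colours limited at 1.2 in either direction. Only the Col4a1 and Col4a2 rows are higher in all 4 naphthalene lungs than in any control, and naphthalene lung 1 shows higher values than naphthalene lung 3 in every fibrillar row.

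Genes that make collagen chains fit for secretion were examined next, from lists that hold no collagen gene. Of 19 tested genes of chain modification and folding, 8 rose and 1 fell, a called share of 47.4%. Over all tested genes the called share was 28.7% (14.1% higher and 14.6% lower). P4ha3, a catalytic subunit of the prolyl hydroxylase that stabilises the helix, averaged 2.51 ± 0.428 CPM after naphthalene and 0.457 ± 0.0921 CPM in controls (log2 fold change 2.43 with SE 0.16, adjusted p = 0.000168 in edgeR). P4ha2, a related catalytic subunit, and P4hb, the shared subunit of the same enzyme, were higher by log2 values of 0.56 and 0.56, and Fkbp14, a helix-folding isomerase, averaged 41.1 ± 8.10 CPM after naphthalene and 20.5 ± 0.553 CPM in controls (adjusted p = 0.000409 in edgeR). Serpinh1, the collagen chaperone Hsp47, had a log2 fold change of 0.10 and did not pass. The higher count was 4 without naphthalene replicate 2 or control replicate 4 and 5 without control replicate 1, 2 or 3. The single lower gene, P3h2, lost its call without naphthalene replicate 2 or 3 or control replicate 1, 2 or 3, while 2 genes were lower without naphthalene replicate 4. Calls over all tested genes moved too, from 4075 of 14192 with all libraries to 2942 of 14262 and 3014 of 14383 without naphthalene replicate 2 or 3. They were 3042 of 14386, 2945 of 14234, 3807 of 14420 and 2929 of 14227 without control replicate 1, 2, 3 or 4. Without naphthalene replicate 1 or 4 they were 5058 of 14244 and 4429 of 14389. Calls lost or gained in these lists can be read only beside these shifts. Of 8 tested genes of the vesicle coat that carries procollagen out of the endoplasmic reticulum, 4 rose, a called share of 50%. Sec24d and Sec13 were higher by 0.41 and 0.50 and Tfg and Sar1a by 0.37 and 0.28 on the log2 scale. Tfg and Sar1a lost their calls without naphthalene replicate 2 or 3 or control replicate 1, 2 or 4, which left 2 genes in each case.

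Of 9 tested genes of propeptide removal, 3 rose and 2 fell, a called share of 55.6% against 28.7% of all tested genes. Bmp1, the proteinase that trims the C-propeptide of fibrillar procollagens, averaged 120.0 ± 7.16 CPM after naphthalene and 73.9 ± 5.93 CPM in controls (log2 fold change 0.70 with SE 0.07, adjusted p = 0.000294 in edgeR), and Adamts3, an N-propeptidase, rose by 0.95 on the log2 scale. Pcolce2, an enhancer of C-propeptide cleavage, and Tll1, a relative of Bmp1, fell by 0.70 and 0.64. Of 7 tested cross-linking genes, 3 rose, a called share of 42.9% against the same 28.7%, and 1 was lower without naphthalene replicate 1. Lox, the lysyl oxidase that starts collagen and elastin cross-links, averaged 343 ± 133 CPM after naphthalene and 94.5 ± 42.1 CPM in controls (log2 fold change 1.86 with SE 0.39, adjusted p = 0.00138 in edgeR). Tgm2, a transglutaminase, was higher by a log2 value of 1.07 and Loxl1 by 0.56, and Loxl1 lost its call without naphthalene replicate 2 or control replicate 2, 3 or 4. Pxdn, the peroxidase that cross-links type IV collagen, had a log2 fold change of -0.39 and did not pass (edgeR adjusted p = 0.0847).

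Partners within the matrix went both ways. Of 11 tested fibril partners, 2 rose and 2 fell, a called share of 36.4% against 28.7% of all tested genes. Tnc, the tenascin of injured tissue, averaged 101 ± 29.01 CPM after naphthalene and 34.7 ± 3.797 CPM in controls (log2 fold change 1.54 with SE 0.22, adjusted p = 0.000176 in edgeR), and Thbs1, a thrombospondin, rose by 1.02 on the log2 scale. Postn and Tnxb, proteins that bind and space fibrils, fell by 0.64 and 0.58. Tnxb lost its call without naphthalene replicate 2, 3 or 4 or control replicate 1, 2 or 4, and the lower count was 1 without each of these except naphthalene replicate 4. Of 16 tested basement membrane partners, 7 fell and 1 rose, a called share of 50% against the same 28.7% (14.1% higher and 14.6% lower). Npnt, the nephronectin gene, averaged 309 ± 32.6 CPM after naphthalene and 552 ± 34.95 CPM in controls (log2 fold change -0.84 with SE 0.09, adjusted p = 0.000213 in edgeR), and Frem2, Frem1 and the laminin chain gene Lama3 fell by 1.72, 1.07 and 0.63 on the log2 scale. The gene that rose was the laminin chain Lamc3, by 0.96, and 3 rose without naphthalene replicate 4. Nid1 and Hspg2, which link the laminin and type IV networks, had log2 fold changes of 0.38 and -0.18 and did not pass.

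Of 9 tested genes of the receptor list, 5 fell and 0 rose in edgeR, a called share of 55.6% against 28.7% of all tested genes. An unadjusted edgeR p was under 0.05 for 7, in either direction, and 1 gene was higher in DESeq2. Itga1, the integrin subunit that binds type IV collagen, averaged 341 ± 74.1 CPM after naphthalene and 528 ± 59.7 CPM in controls (log2 fold change -0.63 with SE 0.17, adjusted p = 0.00995 in edgeR). Itga2, Itga11 and Lair1, a collagen receptor of immune cells, fell by 0.42, 0.97 and 0.84 on the log2 scale, and Itga10 by 0.53. The count varied with single libraries, with 1 lower without naphthalene replicate 2, 2 without naphthalene replicate 3 or control replicate 4, and 3 without control replicate 1, 2 or 3, and 1 gene was higher without naphthalene replicate 1, naphthalene replicate 4 or control replicate 3. At most 4 were lower with any 1 library left out. Itga2 lost its call without naphthalene replicate 2 or control replicate 2 or 3. Itga11 lost it without naphthalene replicate 2, 3 or 4 or control replicate 1 or 4, and Lair1 without naphthalene replicate 2 or 3 or control replicate 3 or 4. Itga10, with the largest edgeR adjusted p of the 5 (0.0378), lost its call without naphthalene replicate 1, 2 or 3 or control replicate 1, 2 or 4. Of 18 tested genes of collagen breakdown and uptake, 5 rose and 2 fell, a called share of 38.9% against the same 28.7%. Timp1, an inhibitor of matrix metalloproteinases, averaged 43.2 ± 6.88 CPM after naphthalene and 3.88 ± 0.893 CPM in controls (log2 fold change 3.46 with SE 0.19, adjusted p = 1.42e-06 in edgeR), and Timp3, the inhibitor that binds to matrix, rose by 1.29. Mmp3 and Mmp19, which are metalloproteinases, were higher by log2 values of 1.94 and 0.95. The 2 lower genes were Mrc2, an uptake receptor for collagen fragments, and Mmp15, and the lower count was 1 without naphthalene replicate 2, 3 or 4 or control replicate 1, 2 or 4.

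Of 17 tested genes of profibrotic signalling, 5 rose and 3 fell, a called share of 47.1% against 28.7% of all tested genes. Ccn2, a matricellular growth factor gene, averaged 302 ± 78.9 CPM after naphthalene and 122 ± 20.4 CPM in controls (log2 fold change 1.31 with SE 0.22, adjusted p = 0.000479 in edgeR). The cytokine genes Il11 and Il6 were higher by log2 values of 1.75 and 2.95, which rest on few control counts. Control lungs 1 to 4 had 11, 13, 6 and 18 counts of Il11 and 6, 6, 10 and 5 counts of Il6. Tgfb1 and Tgfb3, ligands that raise fibrillar collagen transcription, had log2 fold changes of -0.11 and -0.17 and did not pass. The lower genes were the growth factor genes Pdgfa and Pdgfb and Smad7, an inhibitor of TGF-beta signalling, and the lower count was 1 without naphthalene replicate 3 or 4 or control replicate 1, 2 or 4. P3h2, Lamc3, Itga10, Mrc2, Mmp15, Pdgfa, Pdgfb and Smad7, and the genes of these lists given as not passing, were chosen after their values were seen.

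**Figure D5:**
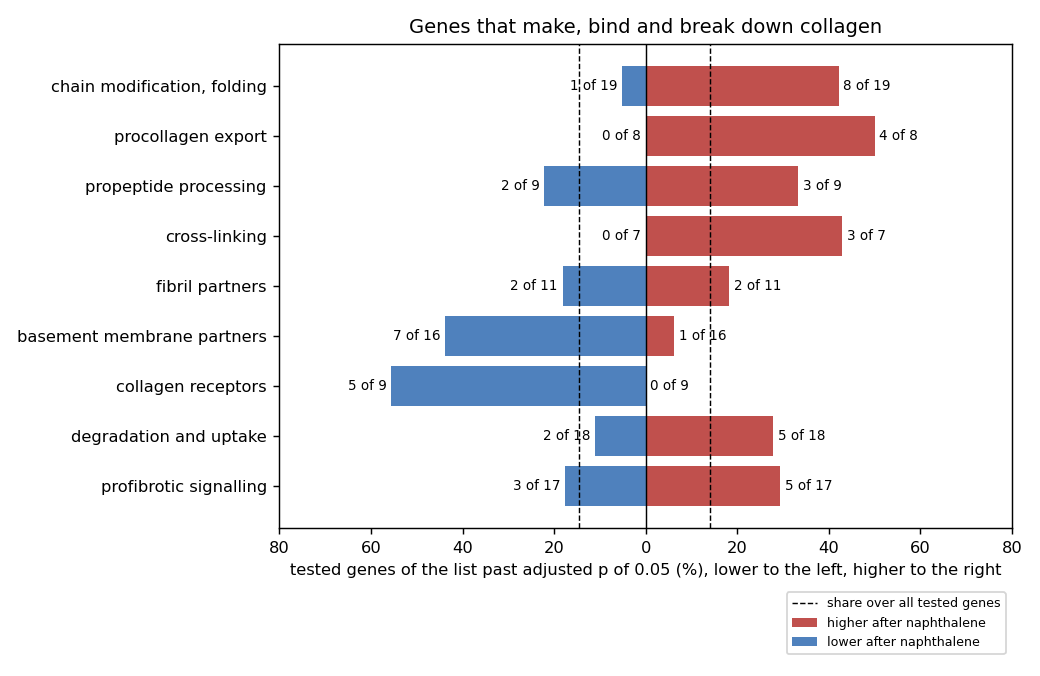
Share of tested genes past an adjusted p of 0.05 in each of 9 lists of genes that make, bind or break down collagen, as percent, with higher genes to the right in red, lower genes to the left in blue, and dashed lines at 14.1% higher and 14.6% lower for all tested genes. Modification (8 of 19), export (4 of 8) and cross-linking (3 of 7) reach furthest to the right, and receptors (5 of 9) and basement membrane partners (7 of 16) furthest to the left.

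Markers of the cells that make collagen, and of other lung cells, were set beside these values, and their called shares can be read against the 14.1% higher and 14.6% lower of all tested genes. Of 15 tested fibroblast markers 6 fell (40%), and the sum over 17 genes was 8210.4 to 9786 CPM in naphthalene lungs and 10864 to 12760.2 CPM in control lungs. Most of that sum was 1 gene, Macf1, and over the other 16 genes, an alternative chosen after seeing the data, the sums overlapped (3719 to 4554 CPM in naphthalene lungs and 4304 to 5111 CPM in control lungs). Of 7 tested myofibroblast markers 2 fell and 1 rose (sums 546 to 717 CPM in naphthalene lungs and 704 to 832 CPM in control lungs, of which Postn made up 56.1%; without it 241 to 395 CPM in naphthalene lungs and 261 to 307 CPM in control lungs), and Acta2 had a log2 fold change of -0.06. Of 11 tested pericyte markers 3 fell and 1 rose (961 to 1395 CPM in naphthalene lungs and 1386 to 1566 CPM in control lungs). Postn made up 29.9% of the pericyte sum, and without it the sums were 657 to 1073 CPM in naphthalene lungs and 958 to 1060 CPM in control lungs. Of 8 smooth muscle markers 1 fell, which is 12.5% (199 to 402 CPM in naphthalene lungs and 243 to 468 CPM in control lungs), and of 15 endothelial markers 2 fell, which is 13.3% (2487 to 5172 CPM in naphthalene lungs and 4093 to 4749.7 CPM in control lungs). Naphthalene lung 1 held the highest fibroblast, myofibroblast, pericyte, smooth muscle, endothelial and Schwann cell sums of its group, although without Macf1 its fibroblast sum was below those of naphthalene lungs 2 and 4. Of 13 tested alveolar type 1 markers 5 rose (12871 to 13776 CPM in naphthalene lungs and 10064 to 13078 CPM in control lungs), of 12 alveolar type 2 markers 4 rose and 1 fell (19838 to 25739 CPM in naphthalene lungs and 17987 to 22309 CPM in control lungs), and of 10 club cell markers 8 fell (2485 to 5024 CPM in naphthalene lungs and 7636 to 14292 CPM in control lungs). Mesothelial markers had 1 higher and 1 lower of 9 tested (710.5 to 975 CPM in naphthalene lungs and 621 to 794 CPM in control lungs). The higher gene, Krt19, made up 25.9% of that sum. Without Krt19 the sums were 442 to 613 CPM in naphthalene lungs and 512 to 685 CPM in control lungs. Of 5 Schwann cell and 7 cardiac muscle markers 0 passed in edgeR, with 1 and 2 at an unadjusted p under 0.05 (sums 564 to 754 CPM in naphthalene lungs and 566 to 619.9 CPM in control lungs, and 259 to 412 CPM in naphthalene lungs and 193 to 566 CPM in control lungs). Over these marker and partner lists, 21 genes were listed at 0, all on chromosome 1, among them the defining markers Cd34, Des and Sox17. The lists share some genes, with Npnt also a fibroblast marker, Tnc and Postn also myofibroblast markers and Postn also a pericyte marker. The part of cell composition in the collagen values was not tested.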

How the data were processed

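Total RNA of 1 lung lobe from each of 8 mice was sequenced with a stranded kit (per the labels' protocols). The deposited values are whole counts per symbol, which the authors left unnormalised. The build mm39, featureCounts 2.0.6, HISAT2 2.2.1, edgeR 4.2.1 and Trim Galore 0.6.7 stand in the list of tools per the submitters' processing notes. Annotation, strand setting and treatment of multiply mapped reads were not given in the sources used here, so overlapping and near-identical genes are uncertain. Here, edgeR 4.0.16 (R 4.3.3) with TMM scaling, quasi-likelihood fits after filterByExpr (at least 10 per library, 15 in total) compared naphthalene with control, with Benjamini-Hochberg adjustment over all tested genes and a threshold of 0.05. It was tested on simulated data. An SE is that of the difference of group means of log2 CPM (prior count 2). Intervals are 95% intervals of limma 3.58.1 voom, and DESeq2 1.42.0 was an alternative. Libraries held 10743842 to 16792306 counts, and differences in genes with few counts are imprecise.

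The members and the lists were chosen with earlier results of these data known. Every collagen gene that passed and the main chains of types I, IV and VI were named by rule with 8 values and the others with means or counts (Col5a1, Col8a1, Col8a2, Col15a1 and Col18a1 are also given with 8, chosen after their values were seen), and of each other list up to 4 passing genes with the smallest p. A gene that this rule names in the profibrotic list is not reported here. Alternatives were other scalings, filters and tools, a stricter threshold, a replicate block and left-out libraries. Same-numbered replicates were not treated as pairs in the main test, and the deviations of their genes had a correlation over 0.1 in 2 of 4 pairs. Chromosomes and exon lengths came from GENCODE M21 (GRCm38), and genes listed at 0 on chromosome 1 were not analysed here. An exon length counts all exon bases of a symbol over its annotated transcripts, so values per kilobase depend on the annotation.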

Additional observations from a re-analysis of the deposited data

Results flagged for a closer look

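In 5 of 132 groups of 4 lungs examined (3 of 62 for collagen genes) 1 lung stood far from the other 3 of its group, by Dixon's criterion for 4 values from the gap over the range, which chance meets in about 1 of 20 groups, so that the number is no more than chance gives. Among collagen genes, Col4a1 in naphthalene lung 4 was at 1140.4 CPM, with the nearest lung of that group at 2082 CPM. Col6a2 in control lung 3 was at 100.4 CPM, with the nearest control at 143 CPM. Col9a3 in naphthalene lung 2 was at 1.96 CPM, with the nearest at 1.49 CPM. Among the other named genes, Sar1a in naphthalene lung 3 was at 291 CPM, with the nearest at 265 CPM, and Lox in control lung 3 was at 157 CPM, with the nearest control at 79.97 CPM.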

How the results depend on the processing

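The 7 collagen calls kept their direction and their side of the threshold under all 18 alternatives of scaling, filter, tool, block and left-out libraries, and Col6a6 alone was lost at an adjusted p of 0.01. The number of calls moved more. In limma voom with quality weights 15 collagen genes passed (4 higher and 11 lower, 2 fibrillar and 8 outside the fibrillar and basement membrane classes), against 45.8% of all tested genes. In DESeq2 9 of 31 passed (5 of that last class), against 32.1% of all tested genes. With the replicate block 12 of 31 passed (10 lower, 1 fibrillar and 6 of the last class, Col13a1 among them), against 30.7% of all tested genes (16.1% lower). The replicate numbers are not said to pair the lungs, and whether they do was not tested. Correlations of same-numbered lungs ran from -0.09 to 0.29, and 2 of the 4 naphthalene lungs correlated best with the control of their own number. Without control replicate 3 and naphthalene replicate 1 together 18 passed (16 lower, 5 fibrillar and 8 of the last class). Leaving out 1 library at a time, the number ranged from 7 to 16, of higher genes from 2 to 3, of lower genes from 5 to 14, of fibrillar genes from 0 to 2, of basement membrane genes from 4 to 5 and of the last class from 3 to 9, with the high end of the total without naphthalene replicate 1. Calls over all tested genes then ranged from 2929 of 14227 without control replicate 4 to 5058 of 14244 (35.5%) without naphthalene replicate 1. With all libraries they were 4075 of 14192 (28.7%), so the collagen range can be read only beside this shift. The log2 fold change changed sign for Col18a1 (-0.24 without both libraries) and Col6a2 (0.047 with quality weights). With 1 library left out it spanned 0 for Col18a1 (-0.13 to 0.28), Col28a1 (-0.018 to 0.31), Col5a1 (-0.32 to 0.077), Col6a2 (-0.14 to 0.13), Col6a5 (-0.43 to 0.060) and Col9a3 (-0.025 to 0.28). The causes were not tested. Of 589 alternative values of single collagen genes, 533 kept direction and side of the threshold, 40 newly passed, 1 no longer passed and 15 changed sign. Few counts limit Col6a6 and the 6 untested genes, and low control levels limit the fold changes of P4ha3, Il11 and Il6.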
